A study of Rattus norvegicus with 40 samples.

Results

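Ucp1, Ucp2 and Ucp3, 3 genes of the uncoupling protein family, were followed in rat liver across 4 dose groups of GW7647, a synthetic agonist of the nuclear receptor PPAR-alpha. They were taken from the platform annotation as every probe set that carried 1 of these gene symbols, which gave 4 of the 31042 probe sets tested, and 3 of 13438 named genes. Ucp1 had 1 probe set (1387033_PM_at), Ucp2 had 1 (1368669_PM_at) and Ucp3 had 2 (1382958_PM_at and 1387681_PM_at, here the first and the second Ucp3 probe set). All 40 animals were adult male Sprague Dawley SD:CD rats, and there were 10 in each group. They were gavaged once a day for 4 days with vehicle or with a GW7647 dose of 0.1 mg/kg, 1 mg/kg or 10 mg/kg, and the livers were collected 24 h later. Each liver gave total RNA for 1 Affymetrix array, whose deposited value for a probe set is a log2 expression value. The question was at which dose each gene differed from vehicle, and by how much.

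Uncoupling proteins are carriers of the inner mitochondrial membrane. Ucp1 lets protons flow back into the matrix of brown adipocytes, so that respiration makes heat in place of ATP. Ucp2, found in many tissues and in macrophages, and Ucp3, best known from skeletal muscle, heart and brown fat, resemble Ucp1 in sequence, and their roles are tied to fatty acid use and to the production of reactive oxygen species. In rodent liver, Ucp2 RNA has been described in Kupffer cells, and in hepatocytes under lipid load. Ucp2 and Ucp3 lie side by side in the genome, and both belong to the genes that fatty acids and PPAR agonists can induce.

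Ucp2 and Ucp3 rose at different doses. Against vehicle livers, Ucp2 was 2.02-fold higher at 1 mg/kg and 2.30-fold higher at 10 mg/kg. Ucp3 was near its vehicle level at 0.1 and 1 mg/kg and was 6.30-fold higher at 10 mg/kg by its first probe set and 3.42-fold higher by its second. Its vehicle levels were low, at 2.48 and 1.82 on the log2 scale beside a median of 1.63 for the arrays' control probe sets for nonspecific binding, so these folds depend on the authors' background correction and a small rise at the lower doses may not be visible. Ucp1 was 1.36-fold higher at 10 mg/kg, from a vehicle level of 1.80, close to that of the same controls. A gene is said here to have risen or fallen only if its adjusted p was under 0.05 in the same direction as deposited and again after the 40 arrays were quantile normalized. By that rule 0 of the 4 probe sets rose at 0.1 mg/kg, where 0.0387% of all probe sets did. At 1 mg/kg 1 of 4 rose, against 9.13% of all, and at 10 mg/kg 4 of 4 rose, against 18.2% of all. The folds above are as deposited. After quantile normalization they were 1.69 and 1.93 for Ucp2, 5.33 and 2.90 for the 2 Ucp3 probe sets, and 1.13 for Ucp1. The Ucp1 rise was then close to the threshold (limma adjusted p = 0.0391).

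**Figure D1:**
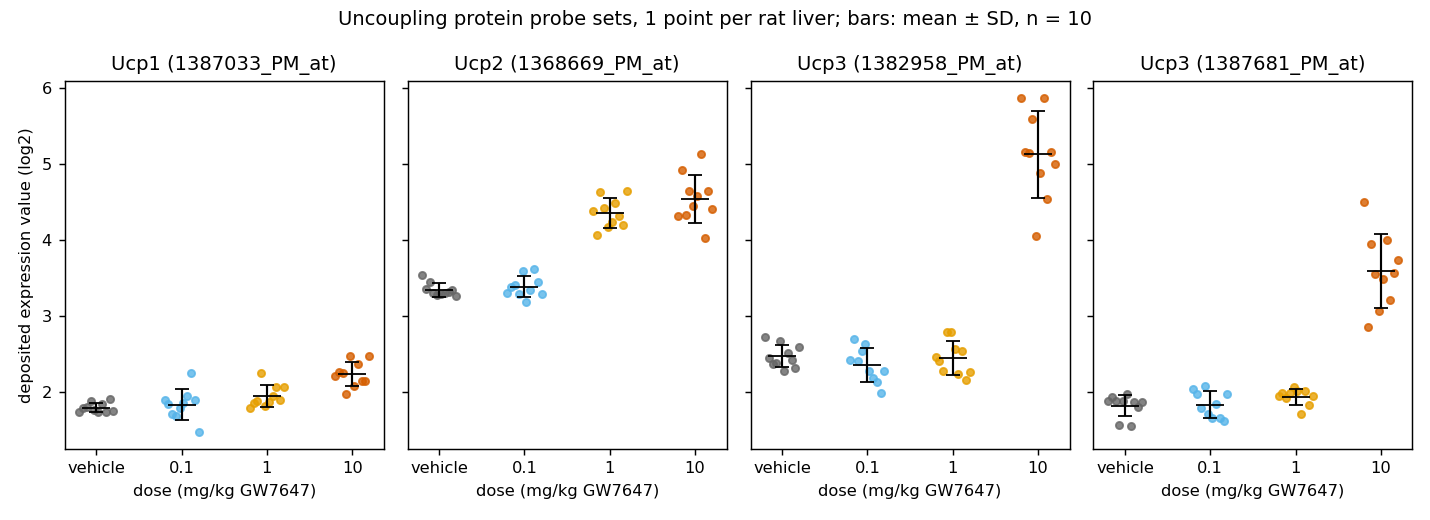
Deposited log2 value of each Ucp probe set (vertical axis) in each rat liver (points), by dose (horizontal axis). Bars give the mean and SD of the 10 livers. Ucp2 was high at 1 and 10 mg/kg, and both Ucp3 probe sets were high at 10 mg/kg, where their lowest livers stood at 4.06 and 2.86.

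The scale of the arrays moved with dose, which is why both scales are used. The median change over all probe sets as deposited was -0.02 on the log2 scale for the lowest dose, 0.14 for 1 mg/kg and 0.26 for the highest, and about 0 at each dose after quantile normalization. Added poly-A control RNAs averaged 5.57 ± 0.37 in vehicle, 5.84 ± 0.28 in the 0.1 mg/kg group, 6.22 ± 0.73 in the 1 mg/kg group and 6.56 ± 0.38 in the 10 mg/kg group (log2, SD, n = 10 each). The difference between the 3′ and 5′ probe sets of beta-actin, a sign of RNA integrity and labelling, averaged 2.78, 2.85, 3.11 and 3.22 in the same order. Whether these shifts come from the livers or from the handling of the arrays cannot be told apart in this design, since no label gives a batch. The part of 3′ bias in the results below was not tested. Within the 1 mg/kg group, arrays 1 to 4 had poly-A levels of 5.25 to 5.70 and arrays 5 to 10 had 6.34 to 7.39. Ucp2 had similar ranges in both sets of arrays, at 4.07 to 4.64 and 4.17 to 4.65.

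The 250 bases before the start of Ucp3 and of Ucp2 are shown because these neighbouring genes differed in the dose at which they rose. They come from RefSeq on GRCr8, at chr1:164227660-164227909 for Ucp3 and chr1:164251123-164251372 for Ucp2, both on the plus strand, and are printed 5′ to 3′. Capitals mark matches to AGGTCA, the core motif that PPAR and its partner RXR are known to bind in pairs.
Ucp3: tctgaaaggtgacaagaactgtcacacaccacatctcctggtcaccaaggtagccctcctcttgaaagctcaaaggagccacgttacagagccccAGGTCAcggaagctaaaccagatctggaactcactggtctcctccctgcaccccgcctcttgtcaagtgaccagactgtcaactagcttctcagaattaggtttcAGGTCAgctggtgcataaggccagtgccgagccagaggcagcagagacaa
Ucp2: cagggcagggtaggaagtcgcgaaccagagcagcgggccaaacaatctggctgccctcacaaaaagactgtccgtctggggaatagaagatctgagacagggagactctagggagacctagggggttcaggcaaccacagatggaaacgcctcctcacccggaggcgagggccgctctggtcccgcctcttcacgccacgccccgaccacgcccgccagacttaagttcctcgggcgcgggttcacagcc
The Ucp3 window held AGGTCA at 155 to 150 and at 50 to 45 bases before the start, and the Ucp2 window held no match on either strand. Of 33469 RefSeq windows, 14.1% held AGGTCA on either strand and 1.27% held it at least 2 times. The full element, AGGNCA repeated once after a gap of 1 base, was in 0.368% of windows on either strand and in no Ucp window, and it can overlap AGGTCA. The Ucp2 window was richer in G and C, at 62.8% with 17 CpG dinucleotides, than the Ucp3 window, at 53.6% with 4, beside a median of 51.2% and 5 over all windows. A match of letters is a description of the sequence and shows no binding.

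The first Ucp3 probe set had a lowest, median and highest log2 value of 2.29, 2.43 and 2.73 in vehicle livers, and of 1.99, 2.35 and 2.70 at 0.1 mg/kg. At 1 mg/kg these values were 2.16, 2.43 and 2.79, and at 10 mg/kg they were 4.06, 5.16 and 5.88. The first 3 groups overlapped, and every liver of the 10 mg/kg group lay above every other liver. At 10 mg/kg the mean was 5.13 ± 0.57 against 2.48 ± 0.15 in vehicle (SD, n = 10 each). The log2 change was 2.66 (SE 0.14, 95% confidence interval 2.36 to 2.95, limma adjusted p = 1.2e-18), and it was 2.41 after quantile normalization. Between 10 and 1 mg/kg the log2 change was 2.68 (SE 0.14, limma adjusted p = 1.82e-17), which ranked 4 by p among 31042 probe sets. In this step both Ucp3 probe sets rose, as did 8.18% of all, and their groups did not overlap, as for 2.86% of all. So nearly all of the measured Ucp3 difference lay between 1 and 10 mg/kg.

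At the lower doses no change of Ucp3 passed the test. The first probe set differed from vehicle by -0.12 at 0.1 mg/kg (95% confidence interval -0.41 to 0.17, limma adjusted p = 0.985) and by -0.03 at 1 mg/kg (-0.32 to 0.27, adjusted p = 0.905), both on the log2 scale. The upper bound at 1 mg/kg lies far below the change at 10 mg/kg. The sign of the change at 1 mg/kg turned in 2 of 13 alternative settings, which ranged between -0.20 and 0.01. Of the 10 livers at 1 mg/kg, 2 lay above and 4 below the range of the vehicle livers.

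The second Ucp3 probe set was also highest at 10 mg/kg, with a smaller change. Its lowest, median and highest log2 values were 1.56, 1.87 and 1.98 in vehicle, 1.62, 1.82 and 2.09 at 0.1 mg/kg, and 1.71, 1.97 and 2.07 at 1 mg/kg. In the 10 mg/kg group they were 2.86, 3.56 and 4.51. Again no liver of the 10 mg/kg group overlapped the others. Its mean was 3.60 ± 0.48 at 10 mg/kg against 1.82 ± 0.14 in vehicle (SD, n = 10 each), a log2 change of 1.77 (SE 0.12, limma adjusted p = 9.01e-16), and 1.53 after quantile normalization. The per-array difference between the 2 probe sets, second minus first, was -1.53 ± 0.41 at 10 mg/kg against -0.65 ± 0.20 in vehicle. The gap between the probe sets thus changed by -0.88 (permutation test, two-sided, p = 2e-05, the smallest that the resamples can give here, adjusted p = 3.43e-05 over 12 tests of this kind). At 0.1 and 1 mg/kg no change of the gap passed (adjusted p = 0.167 and 0.129 by the same test). The fold at 10 mg/kg therefore depends on the probe set. With either probe set, a rise against vehicle passed only at 10 mg/kg. The second was at 1.82 in vehicle and 1.94 at 1 mg/kg, where the nonspecific controls had medians of 1.63 and 1.74. So near the floor it could hardly show a small rise, and it does not settle the lowest dose at which Ucp3 rose.

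Ucp2 had a lowest, median and highest log2 value of 3.27, 3.31 and 3.55 in vehicle livers and of 3.18, 3.36 and 3.62 at 0.1 mg/kg. At 1 mg/kg the values were 4.07, 4.35 and 4.65, and at 10 mg/kg 4.03, 4.52 and 5.13. The livers thus formed a low set (vehicle and 0.1 mg/kg) and a high set (1 and 10 mg/kg) with no overlap between the sets and overlap within each. Such a gap from vehicle, with every dosed liver above every vehicle liver, was seen for 3.39% of all probe sets at 1 mg/kg and for 12.8% at 10 mg/kg. At 1 mg/kg the mean was 4.36 ± 0.20 against 3.35 ± 0.09 in vehicle (SD, n = 10 each), a log2 change of 1.01 (SE 0.09, 95% confidence interval 0.83 to 1.19, limma adjusted p = 2.4e-11). At 10 mg/kg the mean was 4.55 ± 0.32, a log2 change of 1.201 (SE 0.09, 1.02 to 1.38, limma adjusted p = 3.0e-14). After quantile normalization these changes were 0.76 for 1 mg/kg and 0.95 for 10 mg/kg.

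From 1 to 10 mg/kg no further rise of Ucp2 passed the test. The log2 difference was 0.19 (95% confidence interval 0.01 to 0.37, limma adjusted p = 0.0953), so the interval reaches from almost no rise to about that upper bound. Without replicate 8 of the 10 mg/kg group, the liver with the lowest Ucp2 value there, it was 0.25 with a limma adjusted p of 0.0219. The step from 0.1 to 1 mg/kg was 0.97 on the log2 scale (limma adjusted p = 8.94e-11), a step at which 9.77% of all probe sets rose and 4.08% had no overlap. At 0.1 mg/kg the difference from vehicle was 0.04 (-0.14 to 0.22, adjusted p = 0.992).

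**Figure D2:**
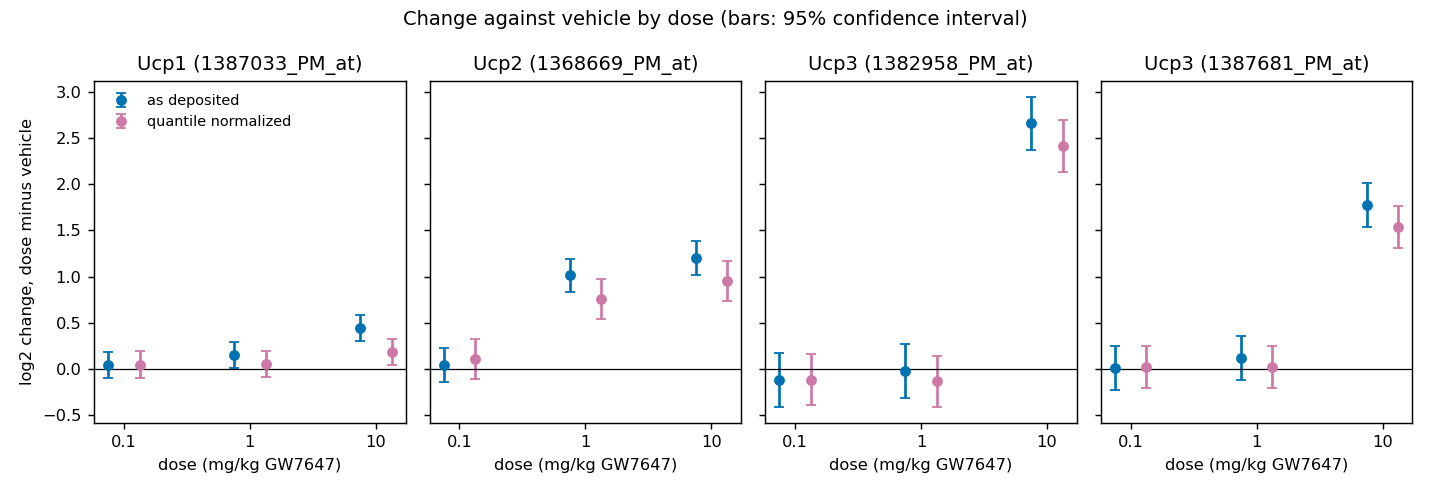
Log2 change of each Ucp probe set against vehicle (vertical axis) at each dose (horizontal axis), as deposited and after quantile normalization. Bars are 95% confidence intervals. Ucp2 changed by 1.01 at 1 mg/kg as deposited, where the first Ucp3 probe set changed by -0.03.

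Ucp1 stayed low in every group. Its lowest, median and highest log2 values were 1.74, 1.78 and 1.91 in vehicle, 1.48, 1.85 and 2.25 at 0.1 mg/kg, and 1.80, 1.89 and 2.25 at 1 mg/kg. In the 10 mg/kg group they were 1.98, 2.24 and 2.47. As deposited, every liver at 10 mg/kg lay above every vehicle liver, as for 12.8% of all probe sets. The range of the 10 mg/kg group overlapped those of the 0.1 and 1 mg/kg groups. By rank within each array it overlapped vehicle too, at percentiles of 11.2 to 42.1 against 12.1 to 25.0 in vehicle. The deposited mean was 2.24 ± 0.16 at 10 mg/kg against 1.80 ± 0.06 in vehicle (SD, n = 10 each), a log2 change of 0.44 (SE 0.07, limma adjusted p = 9.61e-07). After quantile normalization the change was 0.18 (limma adjusted p = 0.0391), which is close to the threshold. It no longer passed after a shift to equal hybridisation controls (0.21, adjusted p = 0.125) or with the poly-A level as a covariate (0.12, adjusted p = 0.352). The median of 23 control probe sets for nonspecific binding also stood higher, at 1.99 ± 0.07 at 10 mg/kg against 1.63 ± 0.05 in vehicle. Its part in the Ucp1 result was not tested. At 0.1 and 1 mg/kg Ucp1 differed from vehicle by 0.04 and 0.15 (limma adjusted p = 0.988 and 0.0914).

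Over the whole dose course, the F test of the 3 dose contrasts was passed on both scales by Ucp2 and by both Ucp3 probe sets, as by 31.7% of all probe sets. The largest adjusted p of these 3 was 2.57e-10, for Ucp2 after quantile normalization. Ucp1 passed it as deposited (limma adjusted p = 1.71e-06) and not after quantile normalization (adjusted p = 0.144). Both Ucp3 probe sets rose at 10 mg/kg against vehicle and against 1 mg/kg and did not pass at 1 mg/kg, a pattern that 2.27% of all probe sets had. Ucp2 rose at 1 and at 10 mg/kg with no passed step between these doses, a pattern of 3.6% of all probe sets.

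The difference between the 2 genes was also tested within arrays, where a shift of the whole array cancels. Ucp3 minus Ucp2, with the first Ucp3 probe set, averaged -0.87 ± 0.15 in vehicle, -1.03 ± 0.27 in the 0.1 mg/kg group, -1.91 ± 0.34 in the 1 mg/kg group and 0.58 ± 0.51 in the 10 mg/kg group (log2, SD, n = 10 each). Only the changes of this difference between groups carry meaning, since the levels of 2 probe sets are not on one scale. Against vehicle it changed by -1.04 (SE 0.12) at 1 mg/kg and by 1.45 (SE 0.17) at 10 mg/kg, and between 10 and 1 mg/kg by 2.49 (SE 0.19). Each of these had a permutation p of 2e-05, the smallest given by any of the 12 tests, and an adjusted p of 3.43e-05. With the second Ucp3 probe set the changes were -0.89, 0.57 and 1.47, with adjusted p of 3.43e-05, 0.00756 and 3.43e-05 by the same permutation test. The signs were the same with either Ucp3 probe set. These tests were added after the values of the groups had been seen, so they describe that pattern and are no independent evidence for it. They set the measured changes of different probe sets side by side, and with Ucp3 this low in vehicle and at 1 mg/kg they do not show which gene's RNA changed more.

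**Figure D3:**
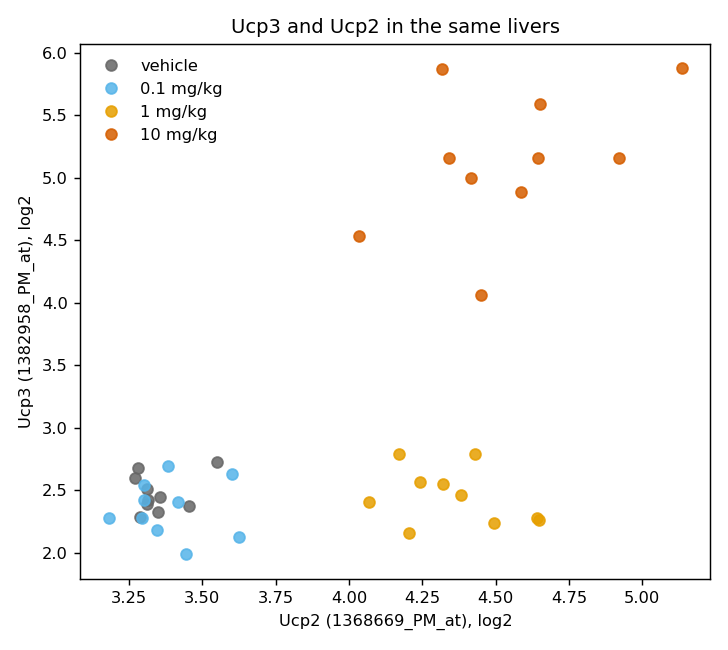
Log2 value of the first Ucp3 probe set (vertical axis) against that of Ucp2 (horizontal axis), 1 point per liver, coloured by dose. The 1 mg/kg livers lie to the right of the vehicle livers at the same height, and the 10 mg/kg livers lie above both, at Ucp3 values of 4.06 and more.

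Among rats of the same dose, no relation between Ucp2 and Ucp3 passed the test. With group means removed, Pearson's r between Ucp2 and the first Ucp3 probe set was 0.26 over 40 rats (permutation p = 0.284, adjusted p = 0.541 over 6 relations) and Spearman's rho was 0.04 (permutation p = 0.823, adjusted p = 0.960). Without the 2 rats farthest from the median of Ucp2, r was -0.07. In the 10 mg/kg group alone r was 0.46 (n = 10, permutation p = 0.181, adjusted p = 0.543) and -0.01 without the 2 farthest rats, so it rests on those 2. The 2 Ucp3 probe sets followed each other over 40 rats, with r = 0.64 (permutation p = 0.004, adjusted p = 0.0239) and rho = 0.50 (permutation p = 0.003, adjusted p = 0.0179). Without the 2 farthest rats r was 0.54. Within the 10 mg/kg group alone their r was 0.70 (n = 10, permutation p = 0.023, adjusted p = 0.138). There rho was 0.59 (permutation p = 0.0815, adjusted p = 0.465), so neither passed after adjustment. Deviations in poly-A level had r = 0.16 with Ucp2 and 0.02 with Ucp3 (permutation adjusted p = 0.541 and 0.998, Spearman's rho 0.14 and 0.01). The array median had r = 0.00 with Ucp2 and 0.27 with Ucp3 (permutation adjusted p = 0.998 and 0.0645).

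Genes were then ranked by how closely their log2 changes at the 3 doses followed those of each Ucp probe set, among 5800 other named genes whose highest group mean was at least log2 5. The closest to Ucp2 were Acsm3, a medium-chain acyl-CoA synthetase, Banf1, Tbc1d12, Fitm2, which takes part in lipid droplet formation, and Cdkn2c, an inhibitor of cyclin-dependent kinases, with root mean square differences of 0.07 to 0.08. Acsm3 changed by 1.10 at 1 mg/kg and 1.23 at 10 mg/kg. The closest to the first Ucp3 probe set were the transporter Slc6a20b (0.14), the lipid droplet protein Pnpla3 (0.34), the stearoyl-CoA desaturase Scd2 (0.37), the lipid kinase Pik3c2g and the RNA-binding protein Zfp36l2. Slc6a20b changed by 0.15 at 1 mg/kg and 2.78 at 10 mg/kg. The second Ucp3 probe set had Pik3c2g (0.09), the fatty acid synthase Fasn (0.21), Zfp36l2, Insig1, which restrains sterol and lipid synthesis, and the nuclear receptor Nr0b2 as its closest genes. These are the nearest of many genes and are given as a description. By rat-to-rat deviations over the 40 arrays, the highest r were with Pc (pyruvate carboxylase, 0.75), Man2b1 (0.73) and Dctn2 (0.73) for Ucp2. For the first Ucp3 probe set they were with the fatty acid binding protein Fabp3 (0.61), the carnitine acetyltransferase Crat (0.60) and Slc12a2 (0.54), and for the second with Slc16a13 (0.63), Fastkd2 (0.57) and Coq5 (0.53).

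Genes of fatty acid oxidation and other known targets of PPAR-alpha rose with dose. Of 19 measured, 5 rose at 0.1 mg/kg (Hadhb, Acaa2, Ehhadh, Cyp4a1 and Acot2) and 18 at 1 mg/kg, with Fgf21 as the exception. All 19 rose at 10 mg/kg, and none fell at any dose. Of all 13438 named genes, 0.0744%, 10.6% and 19.99% rose at these doses. The median log2 change of the list was 1.96 at 10 mg/kg (1.69 after quantile normalization), beside 0.26 (-0.02) for all named genes. Ehhadh, a peroxisomal enzyme of beta-oxidation, was at 9.43, 9.93, 12.09 and 12.56 from vehicle to the highest dose, so most of its change had come by 1 mg/kg. The acyl-CoA thioesterase Acot1 was at 1.65 in vehicle and 10.71 at 1 mg/kg, and Acot2 and the fatty acid hydroxylase Cyp4a1 changed by 4.09 and 3.26 at 10 mg/kg on the log2 scale.

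Some of these targets had a large step between 1 and 10 mg/kg, as Ucp3 did. Cpt1b, the muscle form of the carnitine palmitoyltransferase that admits fatty acids to mitochondria, averaged 2.29 in vehicle, then 2.17, 4.79 and 8.54 with rising dose. Fabp3, the heart and muscle fatty acid binding protein, averaged 3.69, 3.53, 5.41 and 10.55 in the same order. The step between 10 and 1 mg/kg was 3.75 for Cpt1b and 5.14 for Fabp3 (limma adjusted p = 7.36e-22 and 1.67e-17), but unlike Ucp3 both had already risen at 1 mg/kg, by 2.503 and 1.72. Pdk4, the kinase that switches off pyruvate dehydrogenase, changed by 1.32 at 1 mg/kg and 2.65 at 10 mg/kg. Of the 19 genes, 18 rose between 1 and 10 mg/kg, where 8.48% of all named genes rose, and Angptl4 did not pass.

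Among other mitochondrial carriers related to the uncoupling proteins, 2 of 10 measured rose at 1 mg/kg and the same 2 at 10 mg/kg, and none fell. Of all named genes, 10.6% and 19.99% rose at these doses, so the share of carriers at 10 mg/kg was that of genes in general. These were Slc25a30, at 9.61 at 10 mg/kg against 7.51 in vehicle, and Slc25a20, the carnitine-acylcarnitine carrier, at 10.15 against 8.33. The relatives that are also called uncoupling proteins in older names, Slc25a14 and Slc25a27, changed by 0.01 and 0.32 at 10 mg/kg and did not pass. The median change over the 10 carriers was 0.31 as deposited and 0.03 after quantile normalization.

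A list of transcriptional regulators of Ucp genes also held other proteins, such as Sirt3. Of its 21 measured genes, 3 rose at 1 mg/kg, where 10.6% of all named genes did. At 10 mg/kg 6 rose, where 19.99% of all did, and none fell at either dose. At 10 mg/kg the risers included the PPAR partner Rxrg, at 7.96 against 6.83 in vehicle, the lipogenic factor Srebf1, at 10.29 against 9.31, and the mitochondrial deacetylase Sirt3, at 7.94 against 7.11. Ppara itself was at 2.62 at 10 mg/kg against 2.17 in vehicle, Ppard at 5.11 against 5.14 and Pparg at 3.99 against 4.29, and none of the 3 passed on both scales. Ppargc1a, a coactivator of Ucp1 in brown fat, was at 2.10 against 1.77 and did not pass after quantile normalization (limma adjusted p = 0.462). The nonspecific controls had a median of 1.63 in vehicle and 1.99 at 10 mg/kg. Probe sets as dim as those of Ppara and Ppargc1a may not show a change.

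**Figure D4:**
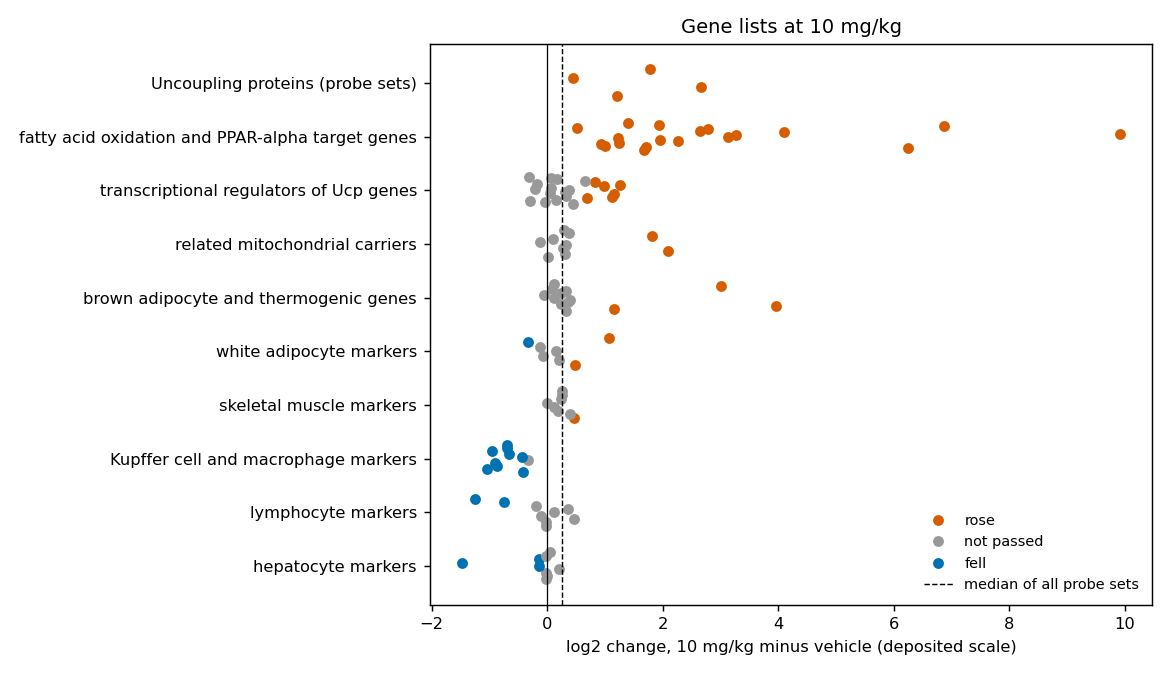
Log2 change at 10 mg/kg against vehicle on the deposited scale (horizontal axis) for the Ucp probe sets and for each gene of 9 lists (points, 1 probe set per gene). Colours show genes that rose, fell or did not pass on both scales, and the dashed line is the median of all probe sets, 0.26. All 19 measured fatty acid oxidation and PPAR-alpha target genes lie on the side of the rises, and 9 of 10 Kupffer cell and macrophage markers fell.

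Markers of the other cells that express uncoupling proteins were read beside these results, since the samples were whole liver. Of 13 brown adipocyte and thermogenic genes measured, 3 rose at 10 mg/kg, where 19.99% of all named genes rose and 7.73% fell. They were the lipid droplet proteins Cidea, at 8.29 against 4.33, and Plin5, at 6.78 against 3.78, and the coactivator Ppargc1b, at 4.72 against 3.56. The other 10 did not pass, among them Adrb3, Cox7a1, Cox8b, Ebf2 and Zic1, whose group means were all under log2 3. At 1 mg/kg 3 of the 13 rose, Cidea, Plin5 and Dio2, where 10.6% of all named genes did. Between 1 and 10 mg/kg 4 rose, Cidea, Plin5, Ppargc1b and Elovl3, where 8.48% of all did. Dio2 and Elovl3 were dim, with highest group means of 1.96 and 2.11. The summed level of the list, the log2 of the sum of its genes, was 9.56 to 10.36 at 10 mg/kg and 8.59 to 9.65 in vehicle. Such a sum follows its brightest genes and says little about the dim ones. Gk, the brightest here in vehicle, was at 9.05 at 10 mg/kg against 8.94 and did not pass. Of 7 white adipocyte markers, Adipoq (2.37 against 1.88) and Lipe rose and Cidec fell. The summed level was 8.21 to 9.003 at 10 mg/kg and 8.55 to 9.17 in vehicle, with Cidec the brightest gene, at 7.88 against 8.21. No skeletal muscle marker reached a group mean of log2 5, and 1 of 8 rose, Ckm, at 2.30 against 1.84, which did not pass without 2 arrays of the 0.1 mg/kg group with a low upper quartile. The summed muscle level was 5.04 to 5.41 at 10 mg/kg and 4.74 to 5.05 in vehicle. Adipoq and Ckm lay near the nonspecific controls, whose median was 1.63 in vehicle and 1.99 at 10 mg/kg. The part of that shift in their rises was not tested. The part of these cells in the Ucp3 and Ucp1 results was not tested either.

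Markers of Kupffer cells, the liver macrophages in which Ucp2 RNA is known, were lower while Ucp2 was higher. Of 10 measured, 4 fell at 1 mg/kg, where 3.24% of all named genes fell. At 10 mg/kg 9 fell and none rose, while 7.73% of all named genes fell at 10 mg/kg. The lectin Clec4f was at 9.28 at 10 mg/kg against 10.14 in vehicle, the lysosomal protein Cd68 at 6.40 against 6.82 and the scavenger protein Cd5l at 7.78 against 8.68, and Adgre1 alone did not pass. The median log2 change of the list was -0.69 as deposited and -1.002 after quantile normalization, and its summed level was 10.38 to 11.37 at 10 mg/kg and 11.17 to 12.02 in vehicle. In whole liver, fewer cells of a type and less RNA per cell cannot be told apart. Of 9 lymphocyte markers, Lck and Ptprcap fell at 10 mg/kg, and none had a group mean at log2 5. Hepatocyte markers were high throughout, with Alb at 13.50 at 10 mg/kg against 13.52 in vehicle, and 3 of 9 fell at 10 mg/kg, Pck1 (-1.47), Cps1 and Serpina1. After quantile normalization the Alb change was 0.0, as a probe set of unchanged rank gives. A probe set this bright could hardly show a change, so Alb says little about hepatocyte content. The part of shifts in cell types in the Ucp2 result was not tested.

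The genes next to Ucp2 and Ucp3 had smaller changes at 10 mg/kg than either. On chromosome 1 of the RefSeq gene order, C2cd3 is the neighbour on the Ucp3 side and Dnajb13 the neighbour on the Ucp2 side. C2cd3 was at 3.62 at 10 mg/kg against 3.36 in vehicle and Dnajb13 at 2.47 against 2.21, and neither passed on both scales at that dose. C2cd3 rose at 1 mg/kg, with a log2 change of 0.64, and fell between 1 and 10 mg/kg, by 0.38 on the log2 scale. Further out, Ppme1 changed by 0.62, Coa4 by 0.61 and Mrpl48 by 0.82 at 10 mg/kg, and these rose, while Pgm2l1, P4ha3 and Rab6a changed by 0.10, -0.02 and 0.25 and did not pass. Around Ucp1, Rnf150 rose at 10 mg/kg, at 2.16 against 1.71, and Elmod2, Tbc1d9, Scoc and Zfp330 did not pass. In all, 13 of 16 neighbours were measured, and 4 rose and 0 fell at 10 mg/kg, beside 19.99% and 7.73% of all named genes, with changes between -0.02 and 0.82 on the log2 scale.

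**Figure D5:**
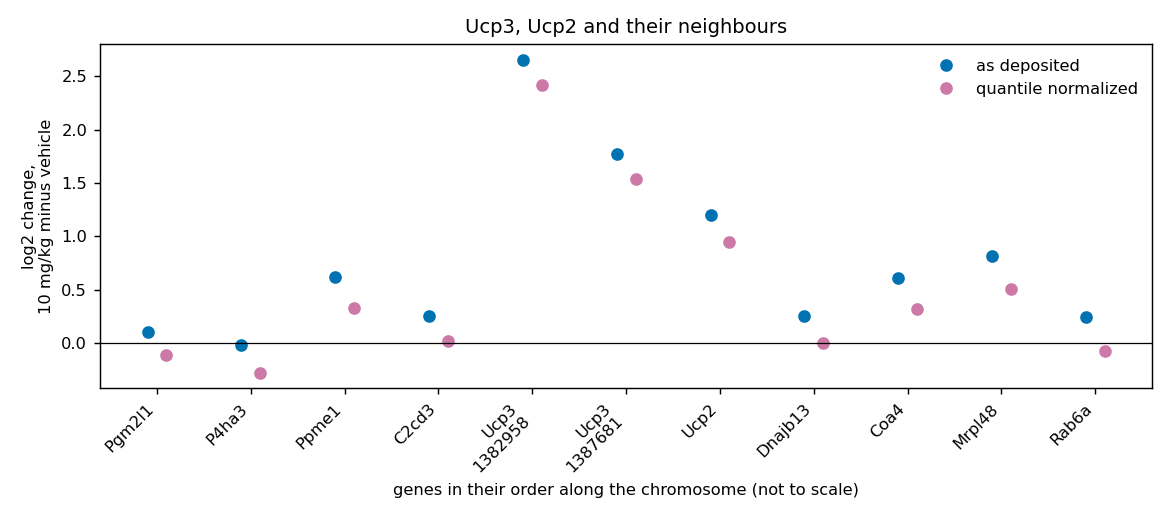
Log2 change at 10 mg/kg against vehicle (vertical axis) of Ucp3, Ucp2 and the measured genes on either side, in their order along the chromosome but not to scale (horizontal axis), as deposited and after quantile normalization. The neighbours lie between -0.02 and 0.82 as deposited, below Ucp2 at 1.201 and the Ucp3 probe sets at 2.66 and 1.77.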

How the data were processed

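RNA of 40 rat livers was measured, with 1 array for each rat and with group and dose read from its label. The deposited table gives a log2 value for each probe set. The submitters' processing notes name GCRMA and Partek as the authors' tools, with no version given in the sources used here. The GCRMA method corrects for background and normalizes between the arrays that are run together. Whether all 40 arrays were run together is not stated. After the background correction dim probe sets sit near a floor, and their folds depend on that correction. Arrays have no read depth, and their number limits the precision.

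The 97 control probe sets were left out, and 31042 were tested in 1 linear model of the 4 groups, two-sided, by lmFit and eBayes of limma 3.58.1 in R 4.3.3, which left 36 residual degrees of freedom. P-values were adjusted by Benjamini-Hochberg over all of them, and the same model was fitted after quantile normalization. Requiring both scales, and all members and lists, were chosen with earlier results of these data known. Of the probe sets tested, 19063 had 1 symbol, 572 had several and 11407 had none listed. An Entrez number let 18983 of them be matched to RefSeq's GRCr8 names, which replaced older symbols. For genes other than the members, the brightest probe set by its mean over 40 arrays was used.

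Per list, the text names up to 5 genes with the largest change at 10 mg/kg among those that passed and reached a group mean of log2 5, and 15 genes whatever their values, of which Prdm16 was not measured. Members of counts of 5 or fewer, exceptions, further examples, and Ehhadh, Slc25a14 and Slc25a27, were named after their values were seen. Permutation tests used 100000 resamples. The model was checked on simulated data. Alternatives were other scalings, a filter on dim probe sets, fits of 2 groups only, other variance priors, a block by replicate number, array weights, a poly-A covariate, a 1.2-fold threshold, permutation tests and leaving out arrays, of which the 2 arrays with a low upper quartile were chosen after seeing the data. A planned comparison of the protein sequences was not made here. Plots were made with matplotlib 3.10.9 under Python 3.11.15.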

Additional observations from a re-analysis of the deposited data

Results flagged for a closer look

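Replicate 1 of the vehicle group had a poly-A control mean of 6.50 on the log2 scale, far from the other vehicle arrays relative to the range of that group, whose mean was 5.57. Chance sets apart about 1 in 20 groups in this way. The 4 Ucp probe sets, the poly-A mean and the array median were each looked at in 4 groups, so 1 such array is not unusual. Its Ucp2 value, 3.55, was the highest of the vehicle group, and its first Ucp3 value, 2.73, was also the highest.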

How the results depend on the processing

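The rises of Ucp2 at 1 and 10 mg/kg and of both Ucp3 probe sets at 10 mg/kg kept their direction and stayed past the threshold under every alternative that gave a value for them, leaving out single arrays included. The log2 change ranged over 0.72 to 1.03 for Ucp2 at 1 mg/kg, 0.90 to 1.201 for Ucp2 at 10 mg/kg, 2.39 to 2.66 for the first and 1.53 to 1.81 for the second Ucp3 probe set at 10 mg/kg, with single arrays kept. Ucp2 and the second Ucp3 probe set reach no group mean of log2 5 and so no value under that filter. The rise of Ucp1 at 10 mg/kg was lost with hybridisation control scaling (0.21) and with the poly-A covariate after quantile normalization (0.12). Its step between 10 and 1 mg/kg, 0.30 as deposited, missed the threshold at 0.13 (quantile), 0.18 (median shift), 0.23 (hybridisation controls), 0.11 (poly-A covariate) and, at 0.30, in the test against 1.2-fold. At 1 mg/kg Ucp1, at 0.15, passed in a fit of only the 2 groups (limma adjusted p = 0.0410) and by a permutation test of the single probe set (p = 0.00379, not adjusted), as did the second Ucp3 probe set at 0.12 (permutation p = 0.0464, not adjusted). Without the 2 arrays of the 0.1 mg/kg group with a low upper quartile, Ucp1 rose between 0.1 and 1 mg/kg on the deposited scale (0.17), and 0 skeletal muscle markers rose. The causes were not tested.

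Signs turned only for values near 0 that passed no test. For Ucp1 these were -0.0015 (hybridisation controls), -0.026 (array weights) and -0.022 (without the 2 arrays) at 0.1 mg/kg, and -0.023 (hybridisation controls) at 1 mg/kg. Its step between 1 and 0.1 mg/kg was -0.022 by the median shift and -0.021 with the hybridisation controls and with the poly-A covariate. The first Ucp3 probe set gave 0.0032 (array weights) and 0.0069 (arrays 1 to 4) at 1 mg/kg. Its step between 1 and 0.1 mg/kg was -0.021 (quantile), -0.036 (median shift), -0.035 (hybridisation controls) and -0.030 (poly-A covariate). The second gave -0.027 at 0.1 mg/kg (hybridisation controls), and -0.0027 (median shift) and -0.051 (hybridisation controls) at 1 mg/kg. Its step was -0.00071 (quantile), -0.025 (median shift) and -0.024 (hybridisation controls). With single arrays left out, Ucp1 at 0.1 mg/kg ranged over -0.0076 to 0.079, the second Ucp3 probe set at 0.1 mg/kg over -0.016 to 0.037, the first at 1 mg/kg over -0.064 to 0.0067, and Ucp2 between 10 and 1 mg/kg over 0.12 to 0.25.

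Counts of probe sets called on the deposited scale were 13 at 0.1 mg/kg, 11109 at 1 mg/kg, 20490 at 10 mg/kg, 13004 between 1 and 0.1 mg/kg, 11334 between 10 and 1 mg/kg and 22511 over the dose course. In the order from 1 mg/kg on, they were 5957, 12121, 6196, 5252 and 13577 after quantile normalization, 6909, 12005, 7819, 6586 and 14764 after the median shift, and 2896, 7365, 3560, 2568 and 8409 after hybridisation control scaling. They were 4091, 8240, 5364, 4971 and 10013 with the poly-A covariate, 5592, 8626, 6504, 4109 and 9538 with 1 probe set per gene, and 4217, 5302, 4887, 1859 and 5779 among probe sets that reached a group mean of log2 5. Against 1.2-fold, 1274, 6230, 1711 and 540 were called for the first 4 of these comparisons. With arrays 1 to 4 alone at 1 mg/kg there were 6785 at 1 mg/kg, 8278 between 1 and 0.1 and 5577 between 10 and 1 mg/kg. At 0.1 mg/kg 6 were called after hybridisation control scaling, 8 in a fit of 2 groups and 4 against 1.2-fold. At 10 mg/kg 60.1% of probe sets were higher and 5.86% lower as deposited, against 18.2% and 20.8% after quantile normalization.

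Deviations of rats with the same replicate number had r of -0.24 to 0.37 over 60 pairs. Their median was 0.03, beside -0.007 for pairs with different numbers. Whether the numbers pair rats was not tested. With the replicate number as a block, 20536 probe sets were called at 10 mg/kg, the Ucp2 change stayed at 1.201, and no call of a Ucp probe set changed. Dim probe sets near the floor of the background correction, as for Ucp1 and the low groups of Ucp3, limit what folds can be read from them. The brightest nonspecific control of each array averaged 4.84 in vehicle, 4.59 at 1 mg/kg and 4.02 at 10 mg/kg. Ucp2 means were 3.35, 4.36 and 4.55 in the same order, so its folds depend on that correction too.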
